A study of Mus musculus with 12 samples.

Results

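Yolk sacs of mouse embryos that lacked Setd2, called Hypb in the study's labels, were compared with wild-type yolk sacs at E10.5, counted in embryonic days, the stage that the submitters chose because the mutants then show many defects and are close to death. The comparison rests on the 3 arrays titled knockout and the 3 titled wild type at E10.5, which are 6 of the 12 arrays of the series, and it is described here over 18193 genes. The other 6 arrays are the same 2 genotypes at E9.0, when no severe defect was visible. Their values are given only to show where E10.5 differs, but all 12 arrays enter the fit and its estimate of the spread. The E10.5 calls therefore rest on them too: 1325 genes were called with all arrays and 773 with only the 6 E10.5 arrays. All embryos were Hypb-/- or Hypb+/+ on a 129Sv/C57BL/6 strain background, the labels name no treatment, and each array held RNA pooled from 4 yolk sacs of the same genotype. The labels name no deletion restricted to a cell type, and which part of the gene was removed is not named in the sources used here.

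Setd2 is the methyltransferase that deposits H3K36me3, a histone mark that follows elongating RNA polymerase II through gene bodies and that recruits factors acting in splicing, DNA methylation and DNA repair. The yolk sac is a bilayered membrane around the embryo. Its visceral endoderm takes up and digests maternal proteins and secretes plasma proteins and lipoproteins, much as the liver does later, while its mesoderm gives rise to primitive red blood cells, macrophages, endothelium, smooth muscle and mesothelium. At this stage the first capillary network is normally remodelled into a tree of larger and smaller vessels.

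Expression was read on Affymetrix mouse genome arrays as log2 RMA values, so that a difference of 1 is a 2-fold difference, and differences are always knockout minus wild type. The arrays are called K1, K2 and K3 for the knockout and W1, W2 and W3 for the wild type, and values are listed in that order. A gene is called higher or lower when its Benjamini-Hochberg adjusted p from limma, over all 18193 genes and two-sided, is below 0.05. RMA values carry no depth, and the number of arrays limits the precision: the median standard error (SE) of a difference was 0.126. The arrays were of visceral yolk sac by their most abundant transcripts. Afp, the fetal counterpart of albumin, lay between 14.09 and 14.23 on the 6 arrays, Ttr, the thyroxine carrier, between 14.07 and 14.21, and the embryonic globin Hbb-bh1 between 14.09 and 14.49, close to the highest value on any array, 14.49. Replicate 3 of both genotypes stood apart on a control for RNA added to the samples: the 3' minus 5' difference of the dap spike was 1.76 and 1.74, against 1.05 to 1.31 on the other 4 arrays. The same measure for Actb was 0.33 to 0.47 in the knockout and 0.44 to 0.59 in the wild type. Medians of gene groups are therefore also given within replicates 1 and 2 and for replicate 3 alone, which is 1 array against 1. The knockout arrays varied more among themselves, with a median SD of 0.162 over 3 arrays against 0.117 in the wild type.

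Setd2 itself read 7.77, 7.81 and 8.07 in the knockout and 8.77, 8.70 and 8.66 in the wild type. All 3 knockout arrays lay below all 3 wild-type arrays, and the gene was called lower (-0.83, SE 0.13; 1.77-fold lower; limma adjusted p = 0.00294). Replicates 1 and 2 alone gave -0.94 and replicate 3 gave -0.59, and at E9.0 it was -1.29. Setd2 was measured by a single probe set, and since the removed part of the gene is unknown the remaining signal cannot be read as an amount of functional transcript.

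Over all genes, 1325 were called, which is 7.28%. Of these 750 were higher in the knockout (4.12% of all genes) and 575 lower (3.16%), and these 2 shares are the background against which the gene groups below are read. At least 2-fold differences were called in 284 genes (1.56%), with 170 higher (0.934%) and 114 lower (0.627%). The largest rise was in Ankrd1, a muscle and stress protein that is a target of the YAP-TEAD pathway, and the largest fall in Tmed6, a member of the cargo receptor family of the early secretory pathway. The median difference of all genes was -0.013, with 90% of genes between -0.41 and 0.50. Called higher genes had a median difference of 0.68 and called lower genes of -0.65, and the smallest difference called was 0.29. In 4151 genes (22.8%) knockout and wild-type arrays did not overlap, 2089 higher (11.5%) and 2062 lower (11.3%).

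The number called depended on single arrays. It was 707 without K1, 768 without W1, 693 without W2 and 860 without W3, against 1243 without K2 and 1630 without K3, and 531 of the 1325 genes kept their call whichever array was left out. Every single gene named below as called is one of those that kept their call in all 6 of these fits unless the text says otherwise. Counts of called genes in a gene list that moved by more than 1.5 times are given with the arrays responsible. Because each array is a bulk sample of several cell types, fewer cells of a type and less RNA per cell cannot be told apart in any of the differences that follow.

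**Figure D1:**
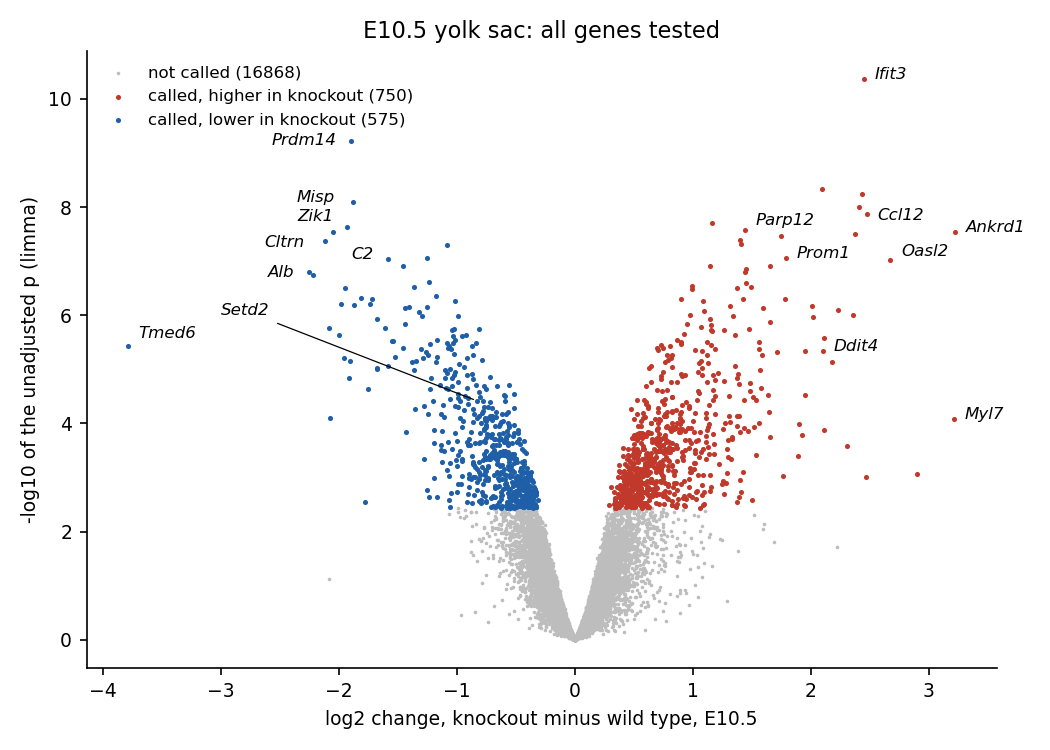
Log2 difference, knockout minus wild type at E10.5 (x axis), against the negative log10 of the unadjusted limma p (y axis) for 18193 genes. The 750 genes called higher lie to the right and the 575 called lower to the left, and Ankrd1, Myl7 and several interferon response genes are among those farthest right while Tmed6 is farthest left.

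Of the 51 gene lists examined, the one with the largest share of calls was that of genes that interferon switches on. Type I interferon, sensed through the receptor Ifnar, induces many genes that block viral replication, degrade foreign RNA or tag proteins, and the factors that carry its signal bind a short element in the promoters of those genes. Of 70 measured members of this list 38 were called higher and 1 lower, 55.7% against the 7.28% of all genes. The list median was 0.51, against -0.013 for all genes, and replicates 1 and 2 alone gave 0.49 and replicate 3 gave 0.60. At E9.0 the median was -0.013, and 2 members were called higher and 1 lower. The mean level over the 70 genes was 6.82, 6.65 and 6.79 on the knockout arrays and 6.08, 6.01 and 6.00 on the wild-type arrays. The number called higher was 32 to 38 when any 1 array was left out.

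Ifit3, one of the tetratricopeptide proteins that bind foreign RNA, read 8.10, 7.85 and 7.79 in the knockout and 5.58, 5.42 and 5.39 in the wild type. It was called 5.46-fold higher (2.45, SE 0.12; limma adjusted p = 7.7e-07). Ifit1, its relative that recognises RNA lacking a methylated cap, read 6.23, 5.78 and 6.38 against 3.86, 3.45 and 3.78, a difference of 2.43 (SE 0.18). Both genes were thus higher on every knockout array, with little spread among the wild-type arrays. Oasl2, a member of the oligoadenylate synthetase family, showed the largest interferon-list difference, with 6.67, 5.98 and 6.59 against 4.39, 3.53 and 3.30 (2.67, SE 0.25; limma adjusted p = 7.92e-05). Usp18, the protease that removes Isg15 from proteins and dampens the receptor, read 8.06, 7.68 and 8.05 against 5.83, 5.20 and 5.65, a difference of 2.37. Rsad2, the antiviral enzyme viperin, read 10.55, 9.52 and 9.72 against 8.12, 7.78 and 7.83, a difference of 2.02.

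The guanylate-binding proteins are GTPases that attack the membranes of intracellular pathogens. Their family and the Ifit family were picked out after the values were seen and overlap the interferon list, so their counts are no separate result. Of the 6 Gbp genes measured 5 were called higher, with a family median of 1.57 at E10.5 and 0.0067 at E9.0. Gbp2 read 6.97, 5.53 and 6.14 in the knockout and 3.59, 4.00 and 3.99 in the wild type (2.35, SE 0.27; 5.11-fold). Its 3 knockout values were spread over more than a unit, yet the lowest stood well above the highest wild-type value. Gbp3 rose by 2.09, Gbp7 by 1.75 and Gbp6 by 1.39. The related immunity GTPases Iigp1 (1.52), Irgm2 (0.82) and Irgm1 (0.77) were also called higher. Of the 5 Ifit genes measured 4 were called higher, with a median of 1.49.

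Further members called higher were the DNA-binding protein gene Ifi202b (2.41), Rtp4 (1.95), the ubiquitin ligase gene Trim30a (1.65), the poly-ADP-ribose polymerase genes Parp14 and Parp12 (both 1.44) and Parp9 (1.05), Ifitm3, which blocks viral entry (1.11), and Oas1a (1.01). The member called lower was Ube2l6, which encodes the conjugating enzyme for Isg15 and is also on the erythroid list (-0.76). Its call was lost without K1, K3, W2 or W3.

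The capitals in the promoter stretches below mark the core of the interferon-stimulated response element, which is GAAA, any 2 bases and GAAA again, searched on both strands, so that TTTC, any 2 bases and TTTC is the same element on the other strand. The stretches are shown because these are among the genes with the largest rises, each carries the element shortly before its start, and overlapping matches in Gbp3 run together. They are 120 bases each, read 5' to 3' on the strand of the gene, from RefSeq on GRCm38.p6. The Ifit3 stretch is chr19:34583335-34583454 (plus strand, first match at -156 from the start), the Ifit1 stretch chr19:34640739-34640858 (plus), the Gbp2 stretch chr3:142620549-142620668 (plus), the Gbp3 stretch chr3:142559947-142560066 (plus) and the Rsad2 stretch chr12:26456508-26456627 (minus).
Ifit3: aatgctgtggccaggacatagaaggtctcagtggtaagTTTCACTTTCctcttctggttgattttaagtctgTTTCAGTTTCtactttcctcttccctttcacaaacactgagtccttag
Ifit1: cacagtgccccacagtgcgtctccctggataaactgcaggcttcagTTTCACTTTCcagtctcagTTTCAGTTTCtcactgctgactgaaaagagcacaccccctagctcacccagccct
Gbp2: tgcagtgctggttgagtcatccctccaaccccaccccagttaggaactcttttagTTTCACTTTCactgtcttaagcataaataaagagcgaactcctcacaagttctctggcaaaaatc
Gbp3: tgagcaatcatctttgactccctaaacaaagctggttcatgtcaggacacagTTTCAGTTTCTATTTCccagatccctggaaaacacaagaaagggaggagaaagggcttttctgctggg
Rsad2: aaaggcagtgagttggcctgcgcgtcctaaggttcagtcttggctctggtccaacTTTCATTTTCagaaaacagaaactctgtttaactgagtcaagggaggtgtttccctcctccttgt

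Windows of 300 bases, from 250 before to 50 after the start, were matched for 14368 of the 18193 genes. The element was present in 523 of these genes (3.64%). It was present in 42 of 585 genes called higher (7.18%) and in 11 of 481 called lower (2.29%). Among interferon list members it was present in 14 of 27 called higher (51.9%) and in 9 of 26 not called (34.6%). The letters were therefore more frequent in called list members than in genes at large, but also in the members that were not called. A match describes the letters of a window and not occupancy by any factor.

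The genes that sense foreign or displaced nucleic acid and pass the signal on moved less. Of 39 measured members, which overlap the interferon list, 5 were called higher and 1 lower, with a median of 0.087. Ifih1, the sensor Mda5 of long double-stranded RNA, read 7.74, 7.76 and 7.53 in the knockout and 6.36, 6.28 and 6.04 in the wild type, a difference of 1.45. Tlr3, the endosomal receptor for double-stranded RNA, read 5.49, 5.09 and 5.34 against 4.58, 4.66 and 4.46, a difference of 0.74. Irf7, the interferon-inducible transcription factor, read 4.83, 4.44 and 5.11 against 4.14, 4.00 and 4.11, a difference of 0.71. Both sensors and the factor were thus higher without overlap. The ligand gene Ifnb1 read 4.02, 4.09 and 4.19 against 4.27, 4.27 and 3.96, values below the array medians of 5.27 to 5.34, with no difference called (-0.07; limma adjusted p = 0.849). Stat2 (0.23; limma adjusted p = 0.304) and the RNA-editing enzyme gene Adar (0.35; limma adjusted p = 0.0969) were not called either. Mavs, the mitochondrial adaptor below Ifih1, was called lower (-0.51), a call lost without any 1 of the 6 arrays. Isg15 had no probe set that names it alone and was not measured.

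The genes of MHC class I antigen presentation, which interferon also induces in many cells, gave fewer calls than the interferon list. Of 22 measured members 4 were called higher and 1 lower, with a median near that of all genes. The number higher was 1 or 2 without K1, K3, W1, W2 or W3, and the number lower was 0 without K1, K2, W2 or W3 and 4 without K3. The immunoproteasome subunit gene Psmb8 was called higher by 0.50. The light chain gene B2m (-0.33; limma adjusted p = 0.207) and the heavy chain genes H2-K1 (-0.19) and H2-D1 (-0.11) were not called, so the classical class I chains gave no called difference at this precision.

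Among 47 chemokine and cytokine genes 6 were called higher and 1 lower. Ccl12, a ligand of Ccr2 that draws in monocytes, read 5.63, 5.84 and 6.54 in the knockout and 3.53, 3.67 and 3.39 in the wild type (2.47, SE 0.19; 5.55-fold; limma adjusted p = 3.41e-05). Ccl3 read 5.30, 5.48 and 5.27 against 4.26, 4.09 and 4.21, a difference of 1.16. Cxcl10, the interferon-induced ligand of Cxcr3, read 5.76, 6.08 and 6.33 against 4.95, 4.61 and 5.20, a difference of 1.14. All 3 ligands were higher on every knockout array. Ackr3, the scavenging receptor of Cxcl12, was higher by 1.17, while Cxcl12 itself gave 0.10 (limma adjusted p = 0.842). The member called lower was Ccl9 (-0.67; call lost without K1, W2 or W3), and the number lower was 0 without K1 or W2 and 2 without K3. Macrophage markers stand beside these groups: their mean level was 6.08, 6.25 and 6.32 in the knockout and 6.08, 6.08 and 6.12 in the wild type over 45 genes, of which 7 were called higher (4 without W1) and 3 lower. Their part in the interferon and chemokine differences was not tested.

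**Figure D2:**
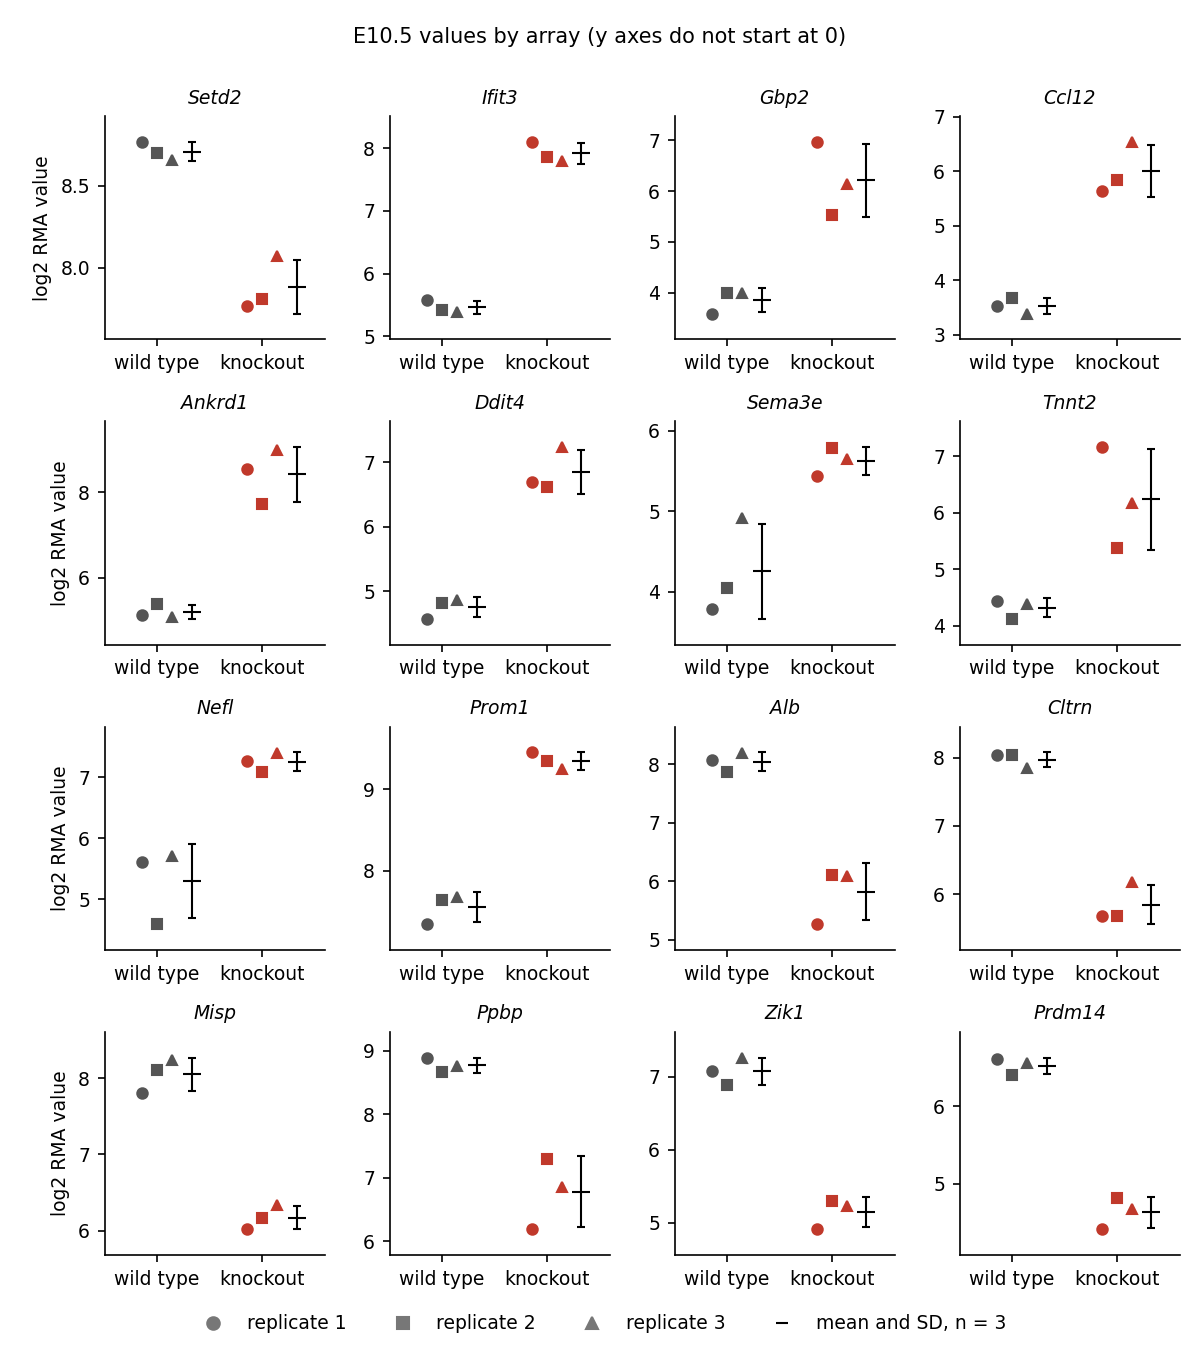
Log2 RMA values (y axis, not starting at 0) on the 3 knockout and the 3 wild-type arrays at E10.5 for 16 genes, with replicate 1 as a circle, replicate 2 as a square, replicate 3 as a triangle, and the mean with its SD (n = 3) beside them. Ifit3, Gbp2 and Ccl12 stand more than 1 unit higher on every knockout array, Alb and Cltrn more than 1 unit lower, and Tnnt2 is highest in replicate 1 of the knockout.

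Targets of YAP and TEAD, the coactivator and DNA-binding factors that respond to cell stretch and to loss of cell contacts, were also higher as a group. Of 33 measured targets 8 were called higher and 0 lower, 24.2% against 4.12% of all genes called higher, and the count was 7 or 8 without any 1 array. The median was 0.28, with 0.32 within replicates 1 and 2, 0.38 in replicate 3 and 0.20 at E9.0. Ankrd1 read 8.54, 7.72 and 8.98 in the knockout and 5.12, 5.37 and 5.08 in the wild type (3.22, SE 0.27; 9.34-fold; limma adjusted p = 4.37e-05). Ccn2, a secreted matricellular protein also called connective tissue growth factor, read 9.50, 9.48 and 10.02 against 7.66, 7.63 and 7.38 (2.11, SE 0.26). Its relative Ccn1 rose by 1.48, and 4 probe sets of Ccn1 gave differences between 1.48 and 2.17. Knockout and wild-type values of these genes did not overlap. Crim1, a transmembrane regulator of BMP ligands, rose by 1.54, Amotl2, which binds YAP at junctions, by 1.04, and Myof by 0.62. Ankrd1 is also expressed in heart muscle, whose markers are described below.

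The letters CATTCC, the core of the TEAD site, were present in 4 of 7 called targets with a matched promoter window (57.1%), in 7 of 16 targets not called (43.8%) and in 15.3% of all genes, on either strand. Genes called higher held it in 17.6% and genes called lower in 17.3%. The stretches of Ankrd1, the gene with the largest rise, and of Ccn1 are shown with the letters, or their reverse complement GGAATG, in capitals. They are chr19:36119949-36120068 (minus strand) and chr3:145650026-145650145 (minus strand) on GRCm38.p6.
Ankrd1: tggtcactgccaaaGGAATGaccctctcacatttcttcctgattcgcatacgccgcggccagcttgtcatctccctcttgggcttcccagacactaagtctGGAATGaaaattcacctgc
Ccn1: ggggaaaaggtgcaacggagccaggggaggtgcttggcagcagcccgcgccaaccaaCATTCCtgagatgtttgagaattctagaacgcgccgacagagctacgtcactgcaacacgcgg

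Immediate early genes, which respond within minutes to growth factors and stress, were called higher in 11 of 46 cases and lower in 1. The number higher was 7 without K1 and 6 without W3, and the number lower was 0 without K1, W1 or W3 and 7 without K3. The zinc finger factor gene Egr1 read 7.22, 6.88 and 7.68 in the knockout and 6.41, 6.15 and 6.01 in the wild type, a difference of 1.07. Ier3 (1.05), Jun (0.91) and Atf3 (0.57) were also called higher, while Fos was not (0.61; limma adjusted p = 0.146). The list median of 0.10 was small beside these members.

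Genes of the hypoxia response, which the factor Hif1 induces when its prolyl hydroxylases lack oxygen, were called higher in 10 of 38 cases and lower in 0, with 7 to 13 called without any 1 array. The median was 0.285, with 0.225 within replicates 1 and 2 and 0.43 in replicate 3. Ddit4, the inhibitor of mTORC1 also called Redd1, read 6.70, 6.62 and 7.24 in the knockout and 4.57, 4.82 and 4.86 in the wild type (2.10, SE 0.28; 4.3-fold; limma adjusted p = 0.000709). Adm, the vascular peptide adrenomedullin, read 7.71, 6.58 and 7.38 against 5.63, 6.15 and 5.71, a difference of 1.39. Egln3, one of the prolyl hydroxylases, read 8.30, 7.63 and 7.73 against 6.75, 6.20 and 6.58, a difference of 1.38. None of the 3 genes overlapped between the genotypes, although K2 was the lowest knockout array in each. Pfkfb3 (1.02; another probe set gave -0.14), which drives glycolysis, Ppp1r3c (1.02), which targets a phosphatase to glycogen, P4ha1 (0.91), a collagen prolyl hydroxylase, and the histone demethylase gene Kdm3a (0.65) were higher too. Vegfa, the growth factor for endothelium, was called higher by 0.44, a call lost without K1, K3, W1, W2 or W3.

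Glycolysis did not move as 1 block. Of 32 measured genes 5 were called higher (3 without K1, 3 without W1, 2 without W2) and 2 lower (1 without K1 and 1 without W1). Hk2, the inducible hexokinase, read 8.88, 8.12 and 8.43 against 7.64, 7.37 and 7.09, a difference of 1.11. Fbp2, which runs the opposing step from fructose bisphosphate, read 8.62, 9.31 and 8.47 against 10.07, 10.41 and 10.22, a difference of -1.43. The main glycolytic targets of hypoxia, Ldha (0.06; limma adjusted p = 0.76), Pgk1 (0.19) and the glucose transporter gene Slc2a1 (0.28; limma adjusted p = 0.224), were not called.

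The hypoxia response core ACGTG was present in 7 of 9 called hypoxia genes with a matched window (77.8%) and in 12 of 21 not called (57.1%), against 26.2% of all genes, 25.8% of genes called higher and 27.9% of genes called lower. The stretches of Ddit4, chr10:59951896-59952015 (minus strand), and Ppp1r3c, chr19:36736689-36736808 (minus strand), are shown with the core on either strand in capitals, since these list members were called and carry it (GRCm38.p6).
Ddit4: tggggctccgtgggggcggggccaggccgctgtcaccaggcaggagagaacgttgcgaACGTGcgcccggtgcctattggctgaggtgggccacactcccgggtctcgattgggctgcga
Ppp1r3c: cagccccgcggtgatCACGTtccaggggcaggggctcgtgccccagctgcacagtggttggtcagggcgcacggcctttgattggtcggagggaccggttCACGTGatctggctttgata

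Of 47 targets of p53 and genes of apoptosis 12 were called higher and 0 lower, with 6 higher without K1, 7 without W1 and 6 without W3. The median was 0.28, with 0.20 within replicates 1 and 2, 0.36 in replicate 3 and 0.15 at E9.0. Ccng1, a cyclin-like target of p53, read 11.33, 11.21 and 11.30 in the knockout and 10.32, 10.25 and 10.30 in the wild type (0.99, SE 0.10; limma adjusted p = 0.00016). Eda2r, a death receptor relative, read 6.73, 6.67 and 7.17 against 5.60, 4.97 and 5.23, a difference of 1.59. Cdkn1a, the cell cycle inhibitor p21, read 8.96, 8.83 and 9.67 against 7.80, 7.86 and 7.91, a difference of 1.30. All 3 were higher without overlap. Psrc1 (1.43) and Plk2 (1.19) were called higher as well. Genes of the cell cycle gave 6 called higher of 55 (3 without W1 and 3 without W3) and 0 lower. These were the cyclins Ccnd2 (0.89) and Ccnd1 (0.76), the inhibitor Cdkn1a, and Cdkn1c (0.85), Rb1 (0.67) and Wee1 (0.46). The calls of Cdkn1c, Rb1 and Wee1 were lost without K1, W1 or W3.

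Genes that respond to stress of the endoplasmic reticulum or to amino acid shortage gave few calls. Of 52 genes 2 were called higher, Chac1 and Atf3, and 0 lower, with a median of -0.02. Chac1, which degrades glutathione, read 5.82, 5.77 and 5.96 in the knockout and 5.01, 4.79 and 4.39 in the wild type, a difference of 1.12 (limma adjusted p = 0.0006). Trib3 (0.04) and Asns (0.14), which the same stress factor Atf4 induces, were not called.

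Endothelial genes were called higher in 11 of 54 cases and lower in 3. The number higher was 4 without K1, 7 without K3, 6 without W1, 4 without W2 and 5 without W3. The median was 0.325, with 0.23 within replicates 1 and 2 and 0.335 in replicate 3. The adhesion receptor genes Adgrl4 (1.57) and Adgrf5 (1.15), expressed in endothelium, were both called higher. Adgrf5 read 9.07, 8.69 and 8.73 in the knockout and 7.91, 7.53 and 7.61 in the wild type. Ctla2b, a cysteine protease inhibitor, was higher by 1.63 and had been higher by 1.40 at E9.0. Pecam1, the junctional protein of all endothelium, was called (0.86), a call lost without K1, K3, W1, W2 or W3. The growth factor receptor genes Kdr (0.33; limma adjusted p = 0.442) and Flt1 (0.43; limma adjusted p = 0.197) and the cadherin gene Cdh5 (0.66; limma adjusted p = 0.124) were not called. Tspan8 was lower, at 9.84, 10.34 and 10.11 against 11.37, 11.39 and 11.21 (-1.23).

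Ligands and receptors that steer vessel growth gave 12 called higher and 4 lower of 48. The number higher was 4 without K1, 7 without K3, 4 without W1, 3 without W2 and 6 without W3. Sema3e, a repulsive ligand for endothelial plexin D, read 5.44, 5.78 and 5.65 in the knockout and 3.79, 4.05 and 4.92 in the wild type (1.37, SE 0.25; limma adjusted p = 0.00576). Ednrb, the endothelin B receptor, rose by 1.02. On the lower side stood Ang, which encodes the ribonuclease angiogenin, with 10.58, 10.65 and 10.54 against 11.97, 11.47 and 12 (-1.22, SE 0.18; limma adjusted p = 0.0015; -1.71 at E9.0). Rnase4, which shares its promoters with Ang, read 10.69, 10.82 and 10.91 against 11.74, 11.54 and 11.73, a difference of -0.86. Both ribonucleases were lower without overlap, while the gene of their cytosolic inhibitor, Rnh1, gave 0.00. Calcrl, a part of the receptor for adrenomedullin, read 8.37, 8.05 and 8.04 against 9.34, 8.93 and 9.36, a difference of -1.06. Its other probe sets were lower as well but not called (-0.77 and -0.30). The adrenomedullin ligand gene was thus higher and the gene of this receptor part lower on the same arrays. Angpt2, an angiopoietin, was not called (0.07).

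Mesenchymal, mesothelial and smooth muscle genes were called higher in 13 of 49 cases and lower in 0, with 8 higher without K1 and 7 without W2. The median was 0.22, but replicates 1 and 2 alone gave 0.09 and replicate 3 gave 0.48. Acta2, smooth muscle actin, read 12.61, 12.32 and 12.81 in the knockout and 12.03, 11.76 and 11.66 in the wild type, a difference of 0.76. Vim, the mesenchymal intermediate filament, read 12.37, 11.92 and 12.14 against 11.59, 11.24 and 11.33, also 0.76. Anxa1 (1.29), Krt19 (1.11) and Tpm1 (0.82) were called higher too. Tbx18, a transcription factor of mesothelium and epicardium, was higher by 1.64 and Kcnj8, a potassium channel of pericytes, by 1.56. Collagens, laminins and other matrix genes gave 3 called higher (5 without K2) and 2 lower (1 without K1 and 0 without K2, W1, W2 or W3) of 59. Their median was 0.055 over replicates 1 and 2 against 0.53 for replicate 3, so their shift sat mostly in 1 pair of arrays. Lama4, the vascular laminin chain, was higher by 1.13, and Tgfbi, a secreted protein induced by TGF-beta, by 1.38. Bmp7, the BMP ligand, was lower by 1.00, which is 2-fold.

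Of 24 measured genes of the IGF axis, which sets the growth of the embryo and placenta, 8 were called higher and 2 lower, 41.7% against 7.28% of all genes. The number higher was 5 without K1, W1 or W2, and the number lower was 1 without K1, K2, W1 or W3 and 0 without W2. Igfbp3, a secreted binding protein, read 9.45, 8.72 and 9.72 in the knockout and 7.64, 7.28 and 7.83 in the wild type, a difference of 1.71. Hmga2, a chromatin protein that controls a gene for an Igf2 mRNA-binding protein, was higher by 1.30 and the adaptor gene Irs1 by 0.56. Igf1 read 8.55, 8.22 and 8.09 against 7.56, 6.67 and 7.61, a difference of 1.01, called except without K1. The main ligand of the embryo, Igf2, gave -0.01 (limma adjusted p = 0.991).

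Genes for axonal transport, synapses and neuronal cytoskeleton were called higher in 13 of 64 cases and lower in 1 (0 without W2), with 11 to 17 higher without any 1 array. Nefl, the light neurofilament chain, read 7.26, 7.09 and 7.40 in the knockout and 5.60, 4.59 and 5.70 in the wild type (1.95, SE 0.31; 3.87-fold; limma adjusted p = 0.00249). Dpysl3, which binds tubulin in growth cones, rose by 1.78 and the ubiquitin hydrolase gene Uchl1 by 1.49. The kinesin gene Kif5c (1.34), Snap91 (1.15), the growth cone gene Gap43 (1.06), Basp1 (0.79) and Stmn1 (0.41) were higher too, but the other probe sets were not called for Kif5c (0.52, -0.09 and 0.14), Snap91 (-0.07) and Stmn1 (0.28). Crabp1, which binds retinoic acid, read 5.66, 7.71 and 7.45 against 4.27, 4.08 and 5.56, a difference of 2.30, with the lowest knockout value just above the highest wild-type value. The neuronal tubulin gene Tubb3 was not called (-0.07). The mean level of 26 markers of other embryonic tissues was 4.27 to 4.33 in the knockout and 4.27 to 4.28 in the wild type, and 0 of them were called.

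Heart muscle genes were higher on the knockout arrays, which is given here because a pool can carry tissue of the embryo. Of 33 measured members 8 were called higher and 0 lower, with 4 higher without W1, 5 without W2 and 5 without W3. Their mean level was 5.91, 5.54 and 5.59 in the knockout and 5.14, 5.10 and 5.13 in the wild type, so K1 was the highest. Myl7, the atrial myosin light chain, read 9.33, 7.52 and 8.07 against 5.24, 4.93 and 5.12 (3.21, SE 0.56; 9.25-fold; limma adjusted p = 0.00477; -1.04 at E9.0). Tnnt2, cardiac troponin T, read 7.16, 5.37 and 6.17 against 4.43, 4.12 and 4.39 (1.92, SE 0.36; limma adjusted p = 0.00728). Myl4 was higher by 2.11, though a second probe set of it gave -0.03, and Nppb by 0.90. The knockout values of these genes were ordered alike, with K1 highest and K2 lowest for Myl7, Tnnt2 and Myl4. Myh6, the atrial myosin heavy chain, read 6.66, 3.34 and 4.05 against 3.09, 2.93 and 2.96 and was not called (limma adjusted p = 0.126). Nkx2-5 (-0.04), Nppa (0.07) and Ttn (0.03) read below the array medians of 5.27 to 5.34 on all 6 arrays and were not called. Trophoblast, decidua and amnion markers had mean levels of 6.01, 5.78 and 6.46 against 5.98, 6.19 and 5.80, with 1 of 27 called higher (0 without K1, W2 or W3 and 2 without K3). Parietal endoderm lines the outer wall of the yolk sac and lays down a thick basement membrane. Its 23 markers had mean levels of 9.75, 9.85 and 9.88 in the knockout and 9.58, 9.28 and 9.50 in the wild type, with a median difference of 0.35. Of these 20 differences were positive and 15 genes were higher without overlap, against 11.5% of all genes, but only Krt19 (1.11) was called. The laminin chain gene Lama1 (0.94; limma adjusted p = 0.431), the collagen gene Col4a1 (0.37; limma adjusted p = 0.450) and Srgn (0.33; limma adjusted p = 0.870) were not called. The part of carried-over or other tissue in the mesenchymal, matrix, endoderm, neuronal and YAP-TEAD differences was not tested.

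**Figure D3:**
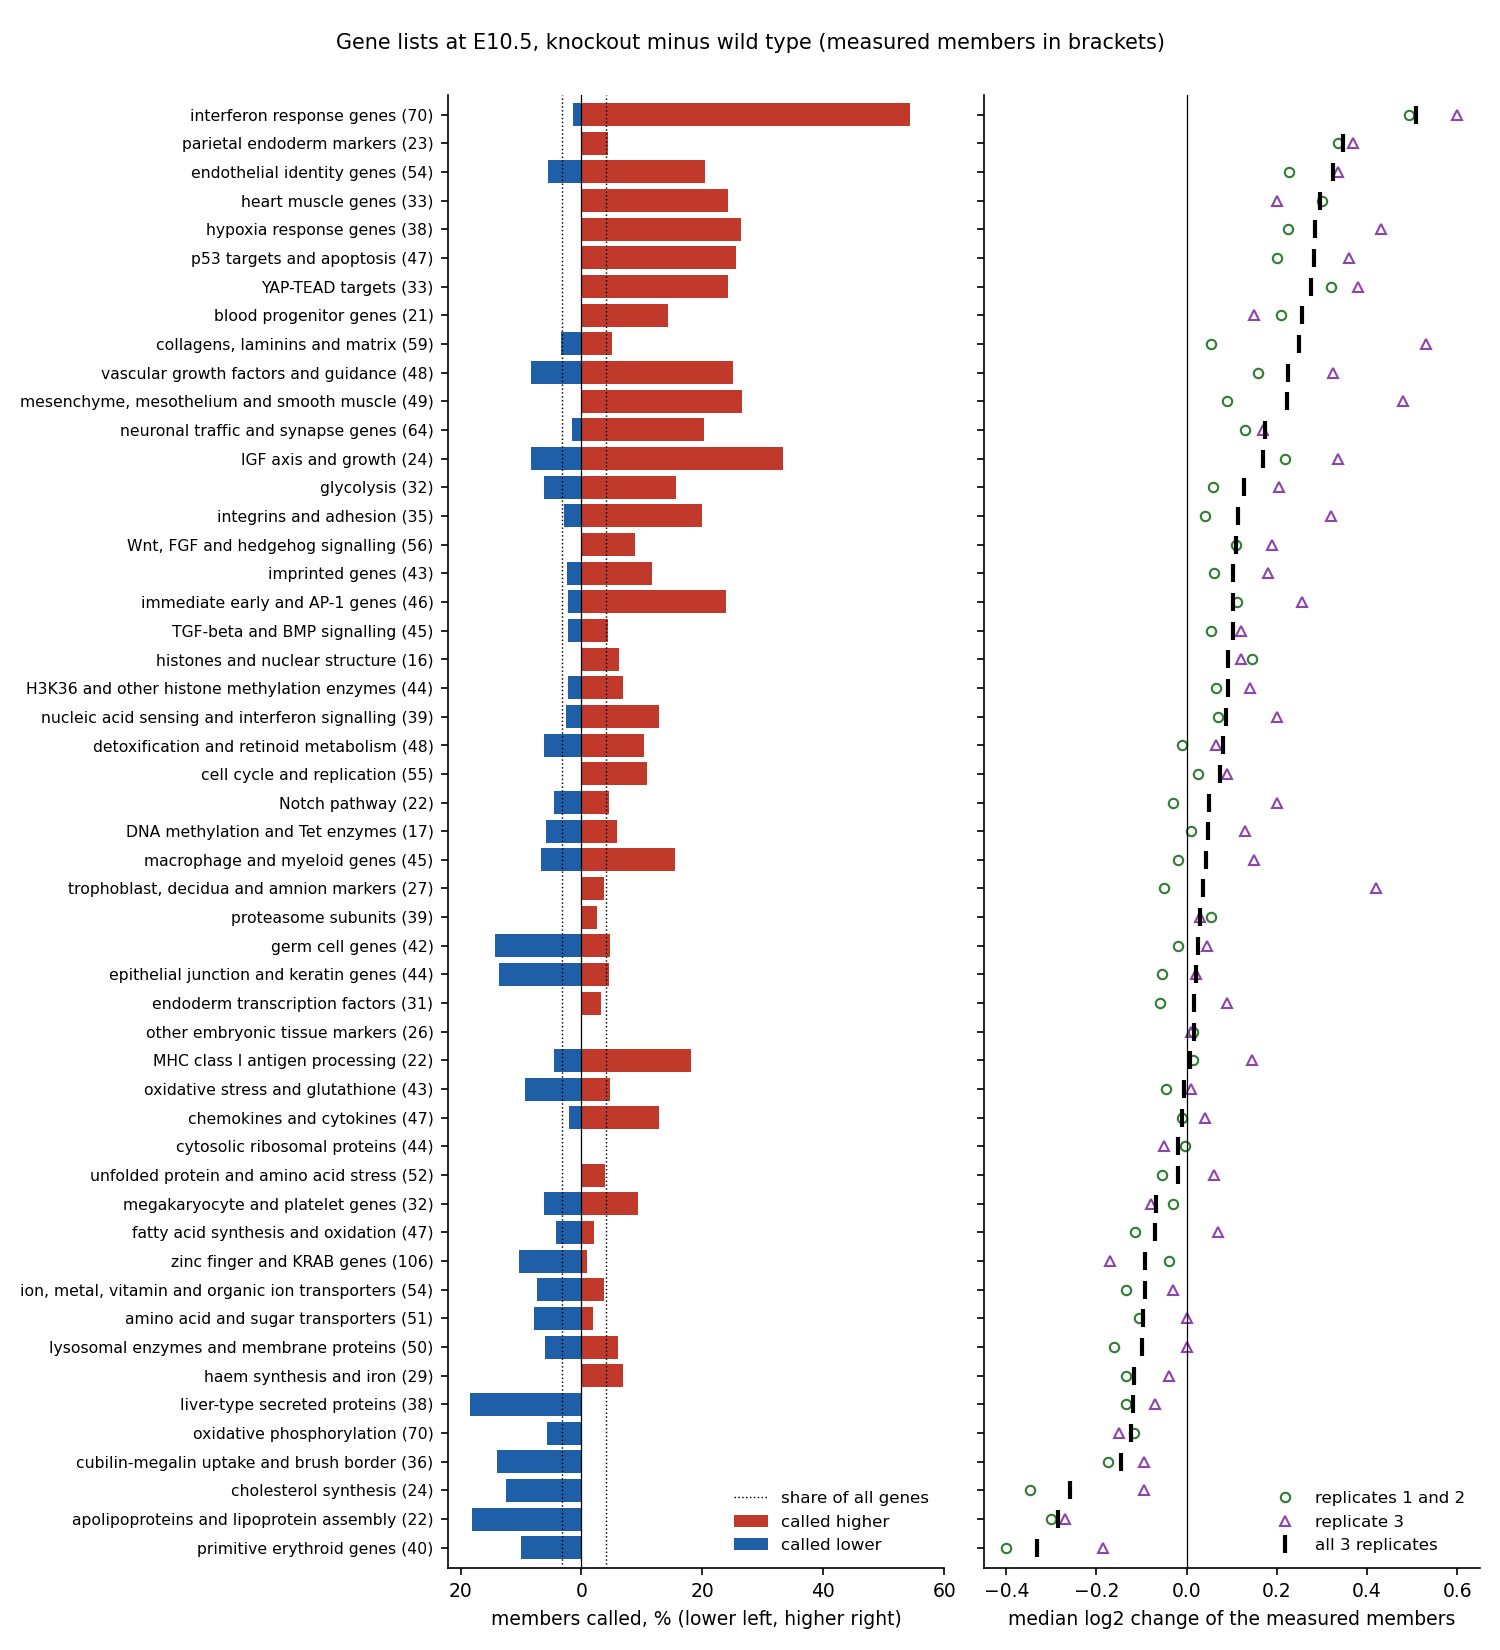
Percentage of the measured members of 51 gene lists called lower (bars to the left) and higher (bars to the right) at E10.5, with dotted lines at the shares of all genes, 3.16% and 4.12%, and beside them the list medians of the log2 difference for all arrays, replicates 1 and 2 (circles) and replicate 3 (triangles). Interferon response genes have the longest bar, with 38 of 70 called higher, and ribosomal protein and other embryonic tissue lists have none.

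Genes of the visceral endoderm were among the largest falls. Of 38 plasma proteins of the kind that liver later secretes 7 were called lower and 0 higher, with 4 lower without K1, 3 without W2 and 3 without W3. Alb, albumin, read 5.27, 6.11 and 6.10 in the knockout and 8.07, 7.87 and 8.19 in the wild type (-2.22, SE 0.22; 4.65-fold; limma adjusted p = 0.000113; 0.06 at E9.0). Proc, the anticoagulant protein C, read 7.12, 7.19 and 7.61 against 8.21, 8.64 and 8.36, a difference of -1.10. Itih3, a carrier of hyaluronan, also gave -1.10. All 3 were lower without overlap, whereas Afp (0.01) and Ttr (-0.03), which lie close to the highest value on any array and may not show a difference there, were not called. Hnf4a, the transcription factor of visceral endoderm and liver, was not called (-0.35; limma adjusted p = 0.0946), nor was Gata4 (0.05), and of 31 endoderm transcription factors 1 was called higher (0 without K1, W1 or W3 and 2 without K3) and 0 lower.

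All 22 apolipoprotein and lipoprotein assembly genes had a negative difference, with a median of -0.285, and in 14 the arrays did not overlap, against 11.3% of all genes. Of these 4 were called lower, 3 to 6 without any 1 array. Apoc1 read 9.24, 9.89 and 9.83 in the knockout and 10.39, 10.94 and 11.03 in the wild type, a difference of -1.13, and its neighbour in function Apoc3 gave -0.73. Abca1, the exporter of cholesterol to nascent particles, gave -0.57. The structural proteins Apoa1 (-0.10), Apob (-0.25) and Apoe (-0.17) and the lipid loading factor Mttp (-0.47; limma adjusted p = 0.0593) were negative but not called.

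The apical surface of the endoderm, where cubilin and megalin take up protein, gave 5 called lower and 0 higher of 36. The number lower was 3 without K1, K2, W2 or W3 and 11 without K3. Cltrn, the partner protein that carries amino acid transporters to the brush border, read 5.68, 5.69 and 6.18 in the knockout and 8.03, 8.03 and 7.84 in the wild type (-2.12, SE 0.18; 4.34-fold; limma adjusted p = 4.71e-05). The actin-bundling proteins of microvilli were lower as well: Espn by 1.11 on the log2 scale and Vil1 by 0.59 on that scale. Misp, which organises cortical actin, read 6.02, 6.16 and 6.33 against 7.81, 8.10 and 8.24 (-1.88, SE 0.14; limma adjusted p = 2.98e-05), and Eps8l3, a relative of the microvillus protein Eps8, gave -1.87. The uptake receptor gene Lrp2, megalin, gave 0.05, and Amn, which anchors cubilin, -0.36 (limma adjusted p = 0.207), neither of them called. Cubn, cubilin itself, was called lower (-0.36), a call lost without K1, K2, W1, W2 or W3. Fcgrt, also on this list, was called lower too (-0.90), a call lost without K1, K2, W2 or W3.

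Some transporters of the same surface were lower too. Among 51 amino acid and sugar transporters 4 were called lower (2 without K1 and 2 without W2) and 1 higher (2 without K1, K3 or W3). Slc6a19, the neutral amino acid transporter that needs Cltrn, read 5.31, 5.51 and 5.66 in the knockout and 6.56, 6.84 and 6.77 in the wild type, a difference of -1.23, and its relative Slc6a18, which needs the same partner, gave -1.09. Both lay lower without overlap. The glutamine importer gene Slc38a1 was higher by 1.04. Among 54 transporters of ions, metals and vitamins 4 were called lower (10 without K3) and 2 higher (1 without K1 or K3, 0 without W1 or W3). The chloride-proton exchanger gene Clcn4 was 4-fold lower (-2), the zinc and manganese importer gene Slc39a8 -1.03 and the organic cation transporter gene Slc22a2 -0.97.

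Epithelial junction and keratin genes gave 6 called lower and 2 higher of 44, with 1 higher without K1, W1, W2 or W3. Tjp3, a scaffold of tight junctions, gave -0.95, Marveld2, tricellulin, -0.70 and the epithelial factor gene Ovol1 -0.75. Tmem54 read 5.26, 5.64 and 5.33 in the knockout and 7.38, 7.40 and 7.61 in the wild type, a difference of -2.05. Among enzymes of detoxification and retinoid metabolism, 5 of 48 were called higher (2 without K1, W1 or W2) and 3 lower. Adh1, the alcohol and retinol dehydrogenase, read 7.85, 7.61 and 7.77 against 9.52, 10.01 and 9.96, a difference of -2.09, and Bco2, which splits carotenoids, gave -1.07. The glutathione transferase genes were split, with Gstk1 higher by 1.40 and Gstt1 (-0.94) and Gstt3 (-0.67) lower.

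The endoderm's lysosomal genes gave 3 called higher (5 without K2) and 3 lower (1 without K1 or W3, 0 without W1 or W2) of 50, which is 12% against 7.28% of all genes. Other genes among the 40 largest falls were Lypd8, which read 3.98, 4.66 and 4.52 against 6.25, 6.64 and 7.03 (-2.25), the serum amyloid A gene Saa4 (-1.91), the complement gene C2 (-1.58), the carboxylesterase gene Ces2b (-1.55) and the phospholipase gene Liph (-1.36). Tmed6 read 4.45, 4.18 and 4.68 against 8.35, 8.10 and 8.22, 13.8-fold lower (-3.79, SE 0.49; limma adjusted p = 0.000652), and was -2.28 at E9.0. In the opposite direction Prom1, the membrane protein prominin, read 9.45, 9.34 and 9.24 against 7.35, 7.64 and 7.68 (1.79, SE 0.16; 3.45-fold), and Ptgs2, the inducible cyclooxygenase, was higher by 1.65.

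The remaining genes among the 40 largest rises and falls lie outside the groups above or were not described with them. Tpbg, a membrane glycoprotein that dampens Wnt signalling, read 6.90, 4.71 and 7.42 in the knockout and 3.06, 3.08 and 4.19 in the wild type (2.90, SE 0.67; limma adjusted p = 0.0206), the third largest rise, and was 2.53 at E9.0. Its call was lost without K1, K3, W1 or W2, and its other probe sets gave 2.14 and 0.24, neither called. Sox11, a transcription factor of neural and mesenchymal progenitors, read 8.90, 8.23 and 8.0 against 5.27, 5.56 and 6.90 (2.47, SE 0.58; limma adjusted p = 0.0219), a call lost without K1, W1 or W2. Of its 5 other probe sets 2 were called, and all 5 were higher (0.92 to 2.10). Kcne3, a potassium channel subunit, was higher by 2.18, Tmem255a by 1.89 (call lost without W2) and Sema3c, a secreted semaphorin, by 1.77 (call lost without K1, K3, W1 or W2). The rises of Cfap69 (1.65), Nap1l2 (1.59), the receptor gene Tnfrsf19 (1.57) and the phosphodiesterase gene Pde4b (1.56) complete the 40. On the lower side Asb17 gave -2.08, Pnma5 -1.96, Unc5cl -1.91 and Mid1 -1.78, the last a call lost without K1, K3, W1 or W2. Plet1os (-1.74), the histidine decarboxylase gene Hdc (-1.72), Plekhd1 (-1.68), the phosphatase gene Ptprr (-1.61), Tmem252 (-1.54), the sperm channel gene Catsperd (-1.53) and Crygn (-1.46) followed. The smallest of the 40 falls not yet described were Tm4sf5 (-1.44), Flacc1 (-1.38), Stra6l (-1.37), Tnk1 (-1.37), the prostaglandin D synthase gene Hpgds (-1.34), Mpzl2 (-1.32) and the peptidase gene Dpp7 (-1.30).

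Subunits of oxidative phosphorylation shifted by a small amount. Of 70 genes 61 had a negative difference, the median was -0.12, and 4 were called lower (1 without K1, 2 without K3, 1 without W1, 1 without W2, 2 without W3) and 0 higher. The arrays did not overlap in 19, all lower, against 11.3% of all genes. The exception in size was Cox7a1, the heart and muscle form of a cytochrome oxidase subunit, with 6.59, 6.41 and 6.07 in the knockout and 7.82, 7.84 and 7.78 in the wild type (-1.46, SE 0.14). Cytosolic ribosomal proteins gave 0 called of 44 by limma's test and a median of -0.018.

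Genes of cholesterol synthesis gave 3 called lower of 24, with 0 without K1, W2 or W3, 1 without K2 and 6 without K3. The median was -0.26, with -0.35 within replicates 1 and 2 and -0.095 in replicate 3, and 18 of the 24 were negative. At E9.0 the median of the same genes was 0.39. The knockout difference itself differed between the stages in 4 of them by limma's interaction test: Idi1 gave -0.31 at E10.5 and 0.74 at E9.0, Lss -0.44 and 0.66, Insig1 -0.31 and 0.71, and Msmo1 -0.55 and 0.52. These 4 difference calls were each lost without K1, W1, W2 or W3, and that of Insig1 also without K3, with adjusted p between 0.0517 and 0.118.

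Primitive erythroid genes gave 4 called lower and 0 higher of 40, and this count rested on single arrays: it was 0 without K1, 1 without W1, W2 or W3 and 10 without K2. K1 was the lowest array, with a mean level of 7.93 over the list against 8.62 and 8.43 in K2 and K3 and 8.56 to 8.71 in the wild type. The median was -0.33, with -0.40 within replicates 1 and 2 and -0.185 in replicate 3. The embryonic globin genes Hbb-bh1 (-0.20; limma adjusted p = 0.242), Hba-x (-0.13; limma adjusted p = 0.518) and Hbb-y (-0.14; limma adjusted p = 0.442) were not called and lay near the top of the range of the arrays.

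Platelet and myeloid genes were split within their lists. Of 32 megakaryocyte and platelet genes 3 were called higher and 2 lower. Ppbp, a chemokine of platelet granules, read 6.19, 7.30 and 6.86 in the knockout and 8.89, 8.66 and 8.75 in the wild type (-1.98, SE 0.22; 3.95-fold; limma adjusted p = 0.000241), and Vwf, the von Willebrand factor, gave -1.19. F13a1, the coagulation factor subunit also made by macrophages, was higher by 1.32, while Pf4 (-0.29) and Itga2b (-0.11) were not called. Among the 45 macrophage and myeloid genes, Mpo, myeloperoxidase, read 7.08, 7.60 and 7.62 against 6.04, 5.55 and 6.04, a difference of 1.56. Fcer1g, the shared signalling chain of Fc receptors, rose by 1.38, whereas Fcgr3, a receptor that uses this chain, read 8.40, 9.22 and 8.54 against 10.34, 10.71 and 10.56 (-1.82, SE 0.19). The oxidase genes were split as well, with Cybb higher by 0.89 and Cyba lower (-0.87). The defining receptor gene of macrophages, Csf1r, was called higher (0.79), a call lost without K1, W1 or W3.

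Germ cell genes gave 6 called lower and 2 higher (1 without K2 and 1 without W3) of 42. Prdm14, a factor of pluripotency and germ line entry, read 4.41, 4.81 and 4.67 in the knockout and 6.61, 6.41 and 6.56 in the wild type (-1.90, SE 0.11; 3.72-fold; limma adjusted p = 5.47e-06), and at E9.0 it gave 0.23. Rnf17, a Tudor domain protein, read 4.31, 3.87 and 3.80 against 6.32, 5.67 and 5.83, a difference of -1.95. Piwil2 (-0.90), Stag3 (-0.82) and Slc25a31 (-1.25), genes of small RNA silencing, meiotic cohesin and germline ADP transport, were lower as well. Ddx4, the germ cell RNA helicase, went the other way, with 7.23, 7.10 and 7.38 against 6.40, 6.27 and 5.81 (1.08). The list median was near 0, so these members moved apart and not as a block.

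Zinc finger and KRAB genes were called lower in 11 of 106 cases and higher in 1. Zinc finger proteins with a KRAB domain recruit silencing complexes to transposons. The number lower was 5 without K1, 7 without K2, 3 without W1, 4 without W2 and 5 without W3, and the number higher was 2 without K2 or K3 and 0 without W1. Zik1 read 4.91, 5.30 and 5.23 in the knockout and 7.08, 6.89 and 7.26 in the wild type (-1.93, SE 0.16; 3.81-fold; limma adjusted p = 4.37e-05) and was -1.30 at E9.0. Zfp850 gave -1.44 and Zfp760 -1.01. A run of 13 measured Zfp genes on chromosome 17, from Zfp54 to Zfp994, was noticed after the values were seen. Of these 8 were called lower and 0 higher, with a median of -0.46 at E10.5 and -0.28 at E9.0, and the count was 4 without K1, W2 or W3 and 5 without W1. Of 323 Zfp genes elsewhere 15 were called lower and 10 higher. Relatives in such a cluster are alike in sequence, so probe sets may read more than 1 of them.

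The H3K36me3 mark itself was not measured. Of 44 genes for H3K36 and other histone methylation 3 were called higher (1 without W1, W2 or W3) and 1, Setd2, lower. Nsd1, which places the mono- and dimethyl marks on the same residue, gave 0.06. Of 17 DNA methylation and Tet genes 1 was called higher, Tet2 (0.79; 0 without K1, K2, W1, W2 or W3), and 1 lower, Dnmt3a (-0.43; 0 without K1, K2, K3, W1 or W2), and Dnmt3b, whose reader domain binds methylated H3K36, gave 0.05.

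Genes near Setd2 on chromosome 9 are inherited with the targeted allele, and the labels give a mixed strain background. Within 10 Mb of Setd2, 11 of 239 genes were called higher and 10 lower, 8.79% against the nearby share of 7.28% of all genes. On the lower side only Spink8 and Nme6 kept their call whichever array was left out. The others each lost it without K1 and without W2. On the higher side only Rab6b, Amotl2 and Cx3cr1 kept theirs. The nearest large falls were Spink8 (-1.26; 0.756 Mb away) and Nme6 (-1.04; 0.738 Mb away), and Nme6 was also lower at E9.0 (-0.67). The largest rises within that distance were Rab6b (1.36; 7.43 Mb away), Ltf (1.29; 0.455 Mb away; call lost without W1 or W2) and Amotl2 (1.04; 7.85 Mb away). Strain and genotype cannot be told apart for these genes.

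The share of calls varied with the level and the length of a gene. In 5 classes of equal size from the dimmest to the brightest genes it was 2.36%, 6.57%, 12.1%, 9.21% and 6.18%. By gene length the share called higher was 3.38%, 2.88%, 3.27%, 4.69% and 6.57% in 5 such classes from the shortest (median 3352 bases) to the longest (median 117780 bases), while the share called lower was 2.83%, 3.69%, 3.3%, 3.6% and 2.5%. The rise with length was seen in the 3 dimmer classes of level, from 3.13% to 7.01%, and in the 2 brighter ones, from 4.03% to 5.94% with lower values between. Without 1 array the share called higher was 1.97% to 3.49% in the shortest class and 2.94% to 6.99% in the longest. It was 71 genes against 106 without K1, 73 against 128 without W1, 71 against 113 without W2 and 72 against 147 without W3, with the longest class ahead each time. On chromosome 17, 49 of 834 genes were called lower (5.88%; 21 without K1, 25 without W1 or W2, 29 without W3), and without the Zfp run 41 of 821 (4.99%), against 3.16% of all genes.

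**Figure D4:**
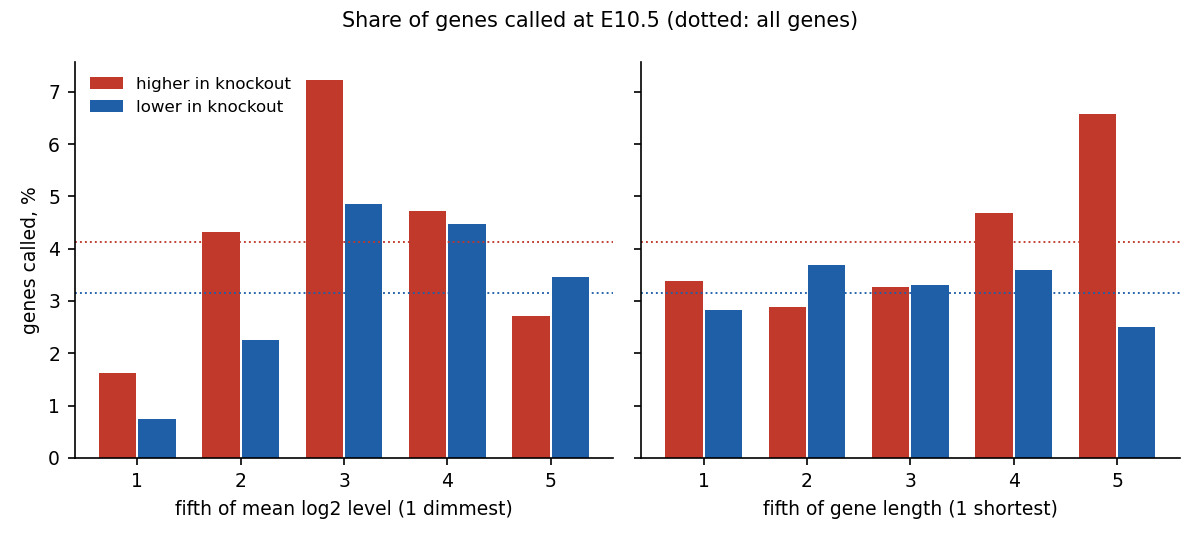
Percentage of genes called higher and called lower at E10.5 (y axis) in 5 classes of mean level over all 12 arrays and 5 classes of gene length (x axes), with dotted lines at the shares of all genes, 4.12% higher and 3.16% lower. The share called higher peaks in the middle level class at 7.22% and reaches 6.57% in the longest class of genes.

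Different probe sets of the same gene gave a check on the measurements. The 693 called genes with further probe sets had 1245 of them, and 1037 (83.3%) gave a difference of the same sign. Among the further probe sets brighter than the median gene it was 353 of 378 (93.4%). A second probe set was called in the same direction in 210 genes and in the opposite direction in 1, Auh (0.50 and -0.54), whose call was lost without W1 or W3. Among called genes named here, an uncalled probe set of the opposite sign stood beside Myof (-0.04), Msmo1 (0.08), Zfp54 (0.05), Catsperd (0.13), Flacc1 (0.11) and Dnmt3a (0.23 and 0.16), besides those given with Kif5c, Snap91, Pfkfb3 and Myl4. The E10.5 call of Msmo1 was lost without K1, W2 or W3, and that of Zfp54 without W2. For 632 called genes there was 1 probe set and no such check.

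Compared with E9.0, the differences at E10.5 were more numerous and partly shared. At E9.0 215 genes were called (1.18%). Replicate 3 of both genotypes stood apart at E9.0 as well: the BioC minus BioB hybridisation control difference was -0.11 and 0.01, against 1.44 to 1.5 on the other 4 arrays of that stage, and the array weights were 0.57 and 0.51 against 1.31 to 2.50. The E9.0 values and the stage differences rest on these arrays too, and with the batch as a block the stage difference was called in 91 genes against 34 without it. Of the 215 genes called at E9.0, 119 were called in the same direction at E10.5, 45 higher and 74 lower. That is 55.3% of the E9.0 calls and 8.98% of the E10.5 calls. The gene called in the opposite direction was Tyrobp (0.48 at E10.5, a call lost without K1, K2, W1, W2 or W3). The arrays of the 2 stages are separate samples, so these counts share no control array. Both come from 1 fit, however, and share each gene's estimate of the spread. The 2 sets of calls are therefore not independent. The median E9.0 difference was 0.23 for genes called higher at E10.5 and -0.29 for those called lower, and 626 of 750 and 505 of 575 had the same sign. Zik1, Ang, Clcn4, Adh1, Fcer1g, Pcdh17 (-1.75 at E10.5 and -2.26 at E9.0), Rab6b and Setd2 itself are examples of calls at both stages.

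The test of the difference between the stages called 34 genes (0.187%), 19 with the larger positive difference at E10.5 (0.104%) and 15 with the more negative one (0.0824%). The count was 20 without K1, 90 without K2, 62 without K3, 12 without W2 and 21 without W3, and 12 of the 34 genes kept the call without any 1 array. These 12 were Alb, Prdm14, Ccl3, Ccl12, Shisa3 and the interferon list members Ifit1, Ifit3, Gbp3, Gbp7, Ifi202b, Usp18 and Oasl2. In all, 12 of the 34 genes were on the interferon list. Ifit3 gave 2.45 at E10.5 and 0.14 at E9.0, Oasl2 2.67 and -0.15, Alb -2.22 and 0.06, and Shisa3, an antagonist of Wnt and FGF receptors, 2.23 and -0.36. Parp12, by contrast, was called higher at both stages, by 1.44 and 1.05.

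**Figure D5:**
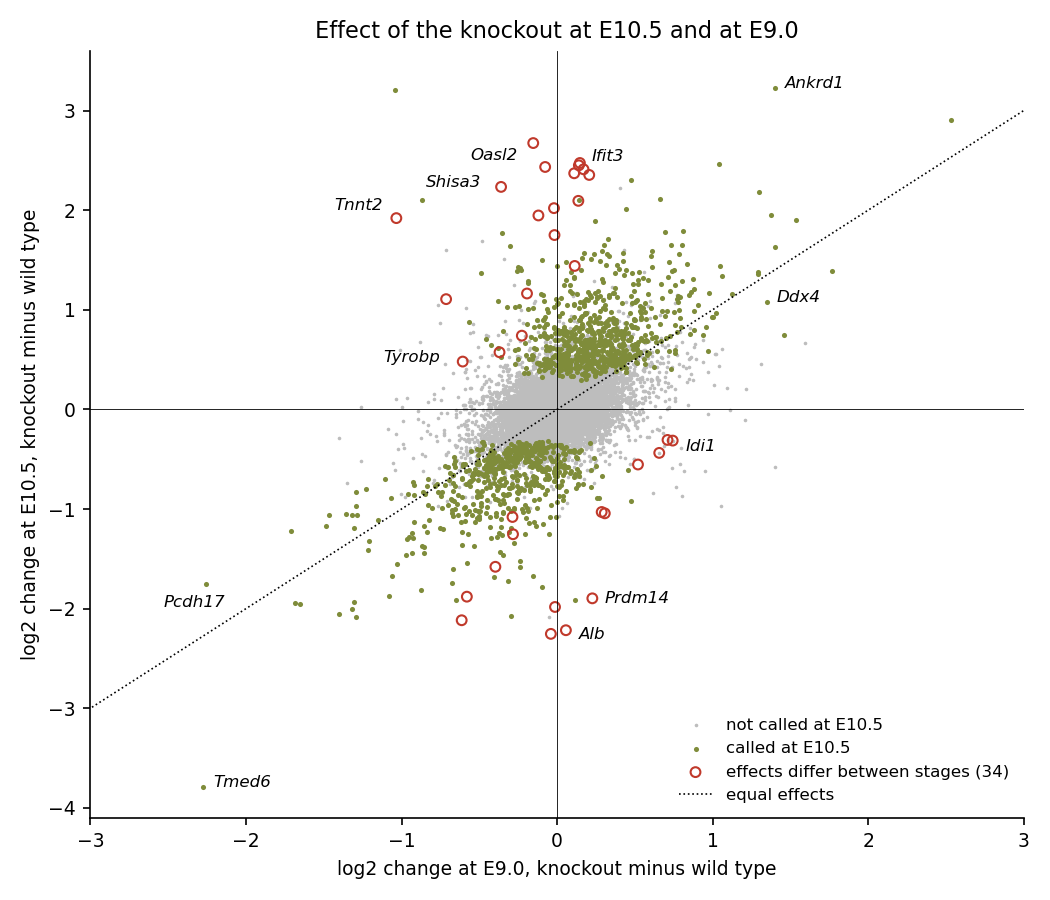
Log2 difference, knockout minus wild type, at E10.5 (y axis) against E9.0 (x axis) for 18193 genes, with genes called at E10.5 in colour, the 34 genes whose difference between the stages passed limma's test circled, and a dotted line where both stages are equal. Ifit3 and Oasl2 lie near the top close to 0 on the E9.0 axis, Alb and Prdm14 near the bottom close to 0, and Tmed6 and Pcdh17 are low on both axes.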

How the data were processed

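Total RNA of pooled yolk sacs was labelled as biotinylated cRNA from 5 micrograms and hybridised to 1 array per pool, per the labels' protocols. The authors deposited log2 expression values, and the submitters' processing notes name RMA as their source, without a version. RMA corrects background, brings arrays to 1 distribution, which removes a change shared by all transcripts, and summarises probes. It gives no detection call or depth.

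The table held 45101 probe sets. The 64 controls were left out, and 34945 probe sets that name 1 symbol in the platform annotation were used (932 name several, 9160 none). Where several probe sets named a gene, the one brightest on average across the 12 arrays stood for it, and 18032 of 18193 genes matched the RefSeq table by gene ID. limma 3.58.1 in R 4.3.3 fitted 1 mean per group to all 12 arrays (8 residual and 4.56 prior degrees of freedom). All tests are two-sided with Benjamini-Hochberg adjustment over all genes of a comparison and a threshold of 0.05. On simulated data of the same size for this comparison, 25 of 67 genes changed by 0.5 (log2), 58 of 67 by 1 and 65 of 66 by 2 were recovered, with 3 false calls. The simulated noise was normal, independent between arrays and equal in spread across groups, without a batch. These rates therefore need not hold for the real arrays.

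Members and the 51 lists (2187 genes, 1974 measured, some on several lists) were chosen with earlier results of these data known. The rule for named genes takes the 40 largest non-overlapping rises and falls, called list members, up to 4 uncalled members per list, the largest stage differences and called genes near Setd2; the first group and the stage differences are all named, the others in part. Other uncalled genes are named as well-known members, chosen after their values were seen. The labels call the pools biological repeats. The batch of replicate 3 was inferred from control probes and is not in the labels. Alternatives were each array left out, replicates 1 and 2 alone, batch and replicate blocks, other scaling, weights, probe set choices and prior.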

Additional observations from a re-analysis of the deposited data

Results flagged for a closer look

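The knockout difference at E10.5 minus that at E9.0 passed limma's test in 34 genes, 0.187% of those tested (difference of the log2 differences, in brackets). The adjusted p-values run from 8.87e-05 (Ifit3 and Prdm14) to 0.0464 (Gbp2), and 1510 genes had an unadjusted p under 0.05.

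More positive at E10.5 were the interferon list members Oasl2 (2.83), Ifit1 (2.51), Ifit3 (2.31), Usp18 (2.26), Ifi202b (2.24), Gbp2 (2.15), Rtp4 (2.07), Rsad2 (2.04), Gbp3 (1.96), Ifitm3 (1.82), Gbp7 (1.77) and Parp14 (1.33). The chemokine genes Ccl12 (2.33) and Ccl3 (1.36), the RNA sensor gene Tlr3 (0.97), the myeloid genes Tyrobp (1.09) and Clec7a (0.94), the heart muscle gene Tnnt2 (2.95) and Shisa3 (2.59) stood with them. Tyrobp had opposite calls at the 2 stages, 0.48 at E10.5 and -0.61 at E9.0. Tnnt2 gave 1.92 at E10.5 and -1.03 at E9.0.

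More negative at E10.5 were the secreted protein genes Alb (-2.27), F13b (-1.35) and C2 (-1.18), the endoderm surface and cytoskeletal genes Lypd8 (-2.21), Cltrn (-1.50) and Misp (-1.30), and the transporter gene Abcb1b (-1.32). The same held for the germ line factor gene Prdm14 (-2.12), the platelet gene Ppbp (-1.97), the sterol genes Lss (-1.09), Msmo1 (-1.07), Idi1 (-1.06) and Insig1 (-1.02), and Naip6 (-0.97) and Fuom (-0.79). The 22 genes other than Alb, Prdm14, Ccl3, Ccl12, Shisa3, Ifit1, Ifit3, Gbp3, Gbp7, Ifi202b, Usp18 and Oasl2 lost the call without at least 1 of the E10.5 arrays, with adjusted p up to 0.125.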

How the results depend on the processing

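Of the 1325 called genes 3 changed sign under any of the 17 alternatives, all with the mean over probe sets in place of 1 probe set; of the genes named only Auh did so (-0.078), whose probe sets oppose each other. Against 1325 calls at E10.5 (750 higher, 575 lower, 284 at least 2-fold, 306 on lists, 80 largest) and 34 for the difference between stages, the count was 773 (428 higher, 345 lower) with only the 6 E10.5 arrays. With the batch as a block it was 2081 (960 lower; difference 91). Genes above the median level gave 873 (438 higher, 129 at least 2-fold, 200 on lists, 26 of the largest; difference 0 in limma's test, with 680 at an unadjusted p under 0.05), and genes with 1 probe set 631 (331 higher, 300 lower, 156 at least 2-fold, 145 on lists, 44 of the largest); fewer genes were tested in both. Leaving out 1 E10.5 array gave 693 to 1630 calls (394 to 812 higher, 299 to 818 lower, 226 to 320 at least 2-fold, 191 to 328 on lists, 75 to 80 of the largest) and 12 to 90 for the difference. The main fit did not pair samples by replicate number. The deviations of same-numbered arrays from their group means correlated at 0.26, 0.067 and 0.40. K1 with W2 gave 0.12 and K2 with W1 0.17. Replicate 3 was set against the others, with -0.35 and -0.15 for K3 with W1 and W2. W3 gave -0.30 with K1 and -0.19 with K2. With the replicate block the counts were 1814, of which 1254 were among the 1325, and 115 for the difference. Replicates 1 and 2 alone gave 1610, centring on the median 1240, quantile normalisation 1312, array weights 1602, the mean over probe sets 1301 and a trend with robust prior 1340. For the counts that moved, the cause was not tested. Of the 80 largest differences 75 kept their call without any 1 array, and of the 39 called interferon list genes 32.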

Other observations

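Genes between 20 and 40 Mb from Setd2 on chromosome 9, an interval noticed after the values were seen, held 16 of 120 called higher (13.3%) and 1 lower (0.833%), with a median difference of 0.058. Auh gave 0.50 (limma adjusted p = 0.0124) with its brightest probe set and -0.54 (limma adjusted p = 0.0181) with another.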
